A study of Mus musculus with 12 samples.

Results

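Nipal1 and 9 other genes of the NIPA and CNNM families of magnesium transport proteins were followed in the cochlear epithelium of Esrp1 knockout and control mouse embryos. The 10 genes were taken by symbol (Nipal1, Nipal2, Nipal3, Nipal4, Nipa1, Nipa2, Cnnm1, Cnnm2, Cnnm3 and Cnnm4) out of 22869 gene symbols, each through its transcript row with the most reads. All 10 were among the 14717 genes with enough reads to be tested. Nipal1 was chosen by its own read counts, which were low in the knockout in this same contrast, so its values are given as a description, without a test of their own. The other 9 were added as relatives of Nipal1 or as proteins with the same substrate.

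The study compared 3 wild-type embryos (control) with 3 Esrp1-/- embryos (knockout), all C57BL/6 at embryonic day 16.5. Both cochleae of an embryo were pooled, the epithelium was freed from mesenchyme with collagenase P, and polyA RNA of each embryo was sequenced in 2 libraries that stand together in 1 column of reads. Esrp1 encodes a splicing regulator of epithelial cells. Its mRNA in the knockout was at 24.1% of the control level, with 102 to 197 CPM (reads scaled to library size) in controls and 27.2 to 39.1 CPM in knockouts, and which part of the gene was deleted is not given in the sources used here.

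Magnesium enters and leaves cells through channels, carriers and exchangers of several unrelated families. NIPA proteins are membrane proteins with several membrane-spanning segments, of which some carry magnesium when placed in test cells. CNNM proteins lie in the plasma membrane, several of them in the basolateral membrane of epithelia, and are linked to magnesium extrusion and to binding of PRL phosphatases. In the cochlea, the stria vascularis secretes the potassium-rich endolymph, and ion transport by its marginal cells is the best known epithelial transport of the duct.

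The 250 bases before the transcription start are shown for Nipal1 and Nipal4, since these were the 2 members whose 3 knockout embryos all lay below the 3 control embryos. They come from RefSeq on GRCm38.p6, the assembly that mm10 represents, and capitals mark GGGCGG, the core of a GC box, read on either strand.
Nipal1, chr5:72647546-72647795, plus strand: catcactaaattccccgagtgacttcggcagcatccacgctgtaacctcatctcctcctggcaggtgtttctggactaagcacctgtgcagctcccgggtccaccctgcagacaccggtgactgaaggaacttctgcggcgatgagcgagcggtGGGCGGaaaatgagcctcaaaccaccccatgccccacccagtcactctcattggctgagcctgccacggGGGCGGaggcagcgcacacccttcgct
Nipal4, chr11:46166360-46166609, minus strand: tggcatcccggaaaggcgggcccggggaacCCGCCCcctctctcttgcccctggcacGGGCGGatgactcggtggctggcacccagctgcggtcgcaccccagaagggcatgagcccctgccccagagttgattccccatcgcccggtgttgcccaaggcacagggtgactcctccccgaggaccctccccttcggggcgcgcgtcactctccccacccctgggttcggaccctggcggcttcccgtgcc

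Each of these windows held GGGCGG at 2 places, as did 32.7% of the 32851 promoter windows of this length at 1 place or more. In Nipal1 the matches began 96 and 27 bases before the start. Neither window held AAGGTCA, the half-site bound by estrogen-related receptors, its longer form TNAAGGTCA or TATAAA. Among all windows, AAGGTCA was found in 4.08%, TNAAGGTCA in 1.14% (every such match is also an AAGGTCA match) and TATAAA in 12.4%. Of the other members with a window, Nipa2 and Cnnm3 held AAGGTCA once each. A match is only a match of letters.

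Some embryos differed from the rest of their group. Ddx3y, a gene of the Y chromosome, stood at 94.97 and 81.9 CPM in knockout embryos 2 and 3, with Xist at 0.268 CPM or less. In knockout embryo 1 and the controls Ddx3y was at 0.907 CPM or less, while Xist ranged from 1098 to 1807 CPM. Control embryo 1 and knockout embryo 1 had 153 and 64.6 CPM of Fos, an immediate early gene, against 1.00 to 7.28 CPM in the other 4 embryos. Reads on genes ranged from 12547301 to 21568517 per embryo. Epithelial markers (7 genes, among them Epcam and Cdh1) were present in all embryos, at a summed 836 to 1655 CPM in controls and 1153 to 1476 CPM in knockouts. Mesenchymal markers were present too, at 1222 to 2488 and 2284 to 2604 CPM (7 genes), as were neuronal and Schwann cell markers at 103.5 to 705 and 436 to 576 CPM (6 genes). In such bulk samples, fewer cells of a type and less RNA per cell cannot be told apart.

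Nipal1 encodes a NIPA-like magnesium transporter and lies on chromosome 5 (72647796 to 72671078, plus strand, 6 exons), with no overlapping gene in RefSeq. Controls 1 to 3 had 56, 67 and 64 reads of it, and knockouts 1 to 3 had 5, 1 and 4. The groups were far apart, and all 3 knockouts held only a few reads. Scaled to library size, this was 3.51, 3.04 and 3.45 CPM in controls and 0.381, 0.0537 and 0.267 CPM in knockouts, with means of 3.33 ± 0.256 and 0.234 ± 0.166 CPM (SD, n = 3 each). The knockout mean was 7.02% of the control mean. Counting error alone left the single read of knockout embryo 2 an exact 95% interval of 0.0253 to 5.57 reads, and an order among the knockouts was not detectable at this depth. The fitted log2 fold change was -3.87 (95% interval -5.10 to -2.65), and the ratio of the 187 control reads to the 10 knockout reads, corrected for library size, was 15.45 (exact 95% interval 8.22 to 32.75, for counting error only).

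The 3 controls were close to each other in Nipal1, with a highest-to-lowest ratio of 1.16. Nipal1 was nevertheless a weakly expressed gene, since only 9.31% of the genes tested had a lower mean FPKM (a level scaled to library size and transcript length) in the controls. With Xist as a covariate, its log2 fold change was -3.05. It was -3.11 without knockout embryos 2 and 3, and -4.38 without both embryos numbered 1.

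No difference of this kind was detected in the 3 tested genes around Nipal1. On one side lie Cnga1, a channel subunit gene that had 0 reads in all embryos, Zar1, with 1 control read and 2 knockout reads, and Nfxl1 (log2 fold change -0.16, 95% interval -0.54 to 0.23). On the other side lie Txk, a tyrosine kinase gene with 8 control reads and 1 knockout read, its relative Tec (0.06, -0.44 to 0.55) and Slain2 (-0.14, -0.51 to 0.24). Nfxl1, Tec and Slain2 had overlapping groups and an adjusted p of 0.994 each in edgeR's quasi-likelihood test. Txk had too few reads for the test.

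**Figure D1:**
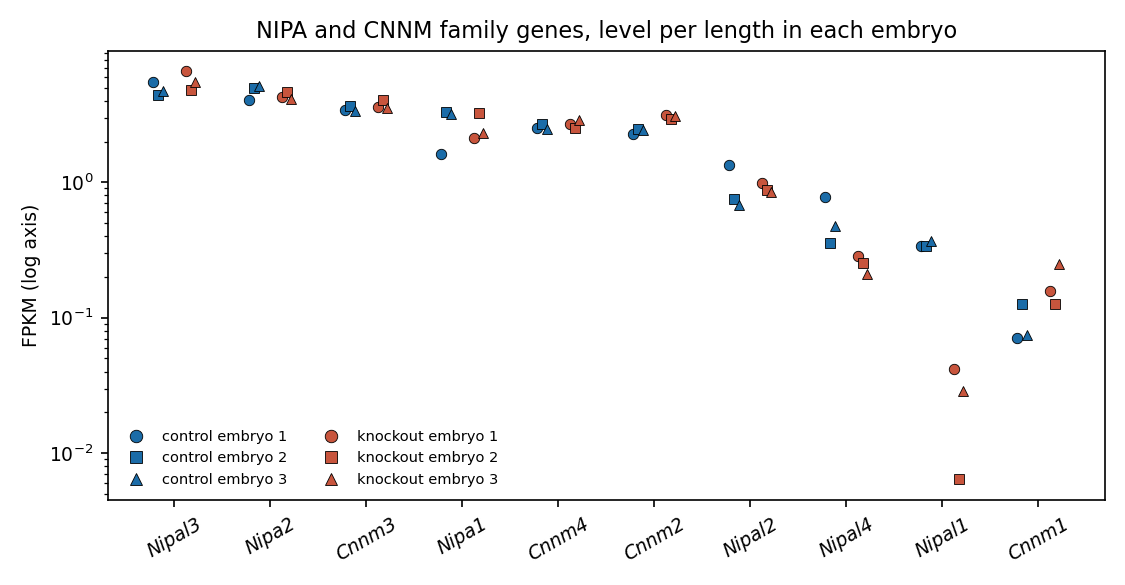
Level per length (FPKM, log axis) of the 10 genes in each of 3 control and 3 knockout embryos, ordered by the control mean; each point is 1 embryo. Nipal3 and Nipa2 lie highest, and Nipal1 drops from 0.340 to 0.370 FPKM in controls to 0.0064 to 0.0419 FPKM in knockouts.

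Compared per length in the controls, the order of mean FPKM was Nipal3 (4.87), Nipa2 (4.75), Cnnm3 (3.48), Nipa1 (2.70), Cnnm4 (2.57), Cnnm2 (2.40), Nipal2 (0.925), Nipal4 (0.537), Nipal1 (0.351) and Cnnm1 (0.0902). The ranges of neighbours in this order overlapped for Nipal3 and Nipa2, Nipa1 and Cnnm4, Nipal2 and Nipal4, and Nipal4 and Nipal1. Within every control embryo, however, Nipal2 was above Nipal4 and Nipal4 was above Nipal1. Nipal3 and Nipa2 changed order between control embryos, as did Nipa1 and Cnnm4. By the knockout means Nipal1 was last, at 0.0256 FPKM, and below Cnnm1 at 0.178 FPKM, while Cnnm2 stood above Cnnm4 and Nipa1. In knockout embryo 2, however, Nipa1 (3.24 FPKM) was above Cnnm2 (2.93 FPKM). The 6 NIPA family genes summed to 14.1 ± 0.477 FPKM in controls and 13.7 ± 0.648 FPKM in knockouts (SD, n = 3 each). Nipal1 made up 2.48% of that sum in controls and 0.187% in knockouts. The 4 CNNM genes summed to 8.54 ± 0.355 FPKM in controls and 9.65 ± 0.0784 FPKM in knockouts. Every knockout (9.60 to 9.74) was above every control (8.29 to 8.94) in this FPKM sum, but not in the sum of CPM, which was 92.1, 85.8 and 82.7 in controls 1 to 3 and 87.2, 94.9 and 101 in knockouts 1 to 3. The read total behind the deposited FPKM is not given in the sources used here.

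Nipal4 encodes ichthyin, a NIPA family member that is mutated in a congenital ichthyosis, and lies on chromosome 11 (46148155 to 46166359, minus strand, 6 exons). Its reads were 108, 61 and 70 in control embryos 1 to 3 and 29, 37 and 27 in knockout embryos 1 to 3. In CPM the controls had 6.77, 2.77 and 3.77 and the knockouts 2.21, 1.99 and 1.80. The groups did not overlap, but control embryo 1 was far above the other controls, and control embryo 2 was near knockout embryo 1. The log2 fold change was -1.14 ± 0.38 (SE, 95% interval -2.01 to -0.27, adjusted p = 0.712, edgeR's quasi-likelihood test), and Nipal4 did not pass. Without control embryo 1 it was -0.71 (adjusted p = 0.691). The authors' deposited table gave Nipal4 a log2 fold change of -1.13 with an FDR of 0.330.

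Among the aligned coding bases, Nipal1 was 68.1% identical to Nipa2, 64.2% to Nipal4, 61.8% to Nipa1, 58.7% to Nipal2 and 58.1% to Nipal3. No stretch of 30 bases was shared between the transcripts of any 2 NIPA family genes.

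Nipa1 and Nipa2 lie 15990 bases apart on chromosome 7, both on the minus strand (55978484 to 56019600 and 55931266 to 55962493). NIPA1 is an endosomal and plasma membrane protein mutated in a hereditary spastic paraplegia, and NIPA2 a related magnesium transporter. Nipa1 had 8.09, 14.5 and 14.3 CPM in control embryos 1 to 3 and 8.996, 14.6 and 11.3 CPM in knockout embryos 1 to 3. It was lowest in both embryos numbered 1, and the groups overlapped (log2 fold change -0.08, 95% interval -0.71 to 0.56). Nipa2 had 43.6, 46.6 and 48.8 CPM in controls and 38.3, 44.6 and 42.6 CPM in knockouts, with overlapping groups (-0.15, -0.43 to 0.13). Both had an adjusted p of 0.994. Within each group Nipa2, too, was lowest in the embryo numbered 1, but control embryo 1 (43.6 CPM) was above knockout embryo 3 (42.6 CPM). Its spread was smaller: the highest-to-lowest ratio in controls was 1.79 for Nipa1 and 1.12 for Nipa2. Nipa2 overlaps Cyfip1 in RefSeq, and whether reads were counted by strand is not given in the sources used here.

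Nipal3 and Nipal2 are less studied NIPA-like genes. Nipal3 lies on chromosome 4 (135442805 to 135494972, minus strand), as does Esrp1, but 124056021 bases away from it, and it overlaps Stpg1. It had 74.0, 51.3 and 56.0 CPM in control embryos 1 to 3 and 75.2, 57.3 and 71.9 CPM in knockout embryos 1 to 3 (log2 fold change 0.17, 95% interval -0.22 to 0.57). Nipal2 lies on chromosome 15 (34572796 to 34679207, minus strand) and had 13.6, 6.80 and 6.197 CPM in controls and 8.62, 7.999 and 8.34 CPM in knockouts (-0.09, -0.80 to 0.62). Both had an adjusted p of 0.994, and the groups overlapped. Control embryo 1 was the highest control in both, and for Nipal2 it decided the sign: without this embryo the log2 fold change of Nipal2 was 0.35 (adjusted p = 0.753).

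Among the controls, embryo 1 was the highest in 7 of the 10 members (Nipal1 to Nipal4 and Cnnm2 to Cnnm4) and the lowest in 2 (Nipa1 and Nipa2). The same embryo had the highest summed level of epithelial markers (1655 CPM against 836 and 1003 CPM), and the lowest of mesenchymal markers (1222 against 2128 and 2488 CPM) and of neuronal and Schwann cell markers (103.5 against 705 and 409 CPM). The highest-to-lowest ratio over the controls was 2.45 for Nipal4, 2.20 for Nipal2, 1.79 for Nipa1, 1.68 for Cnnm1 and 1.44 for Nipal3. It was 1.16 for Nipal1, and lower still for Cnnm3 and Cnnm4 (1.13 each), Nipa2 (1.12) and Cnnm2 (1.07). The part of tissue composition in these members' levels was not tested.

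**Figure D2:**
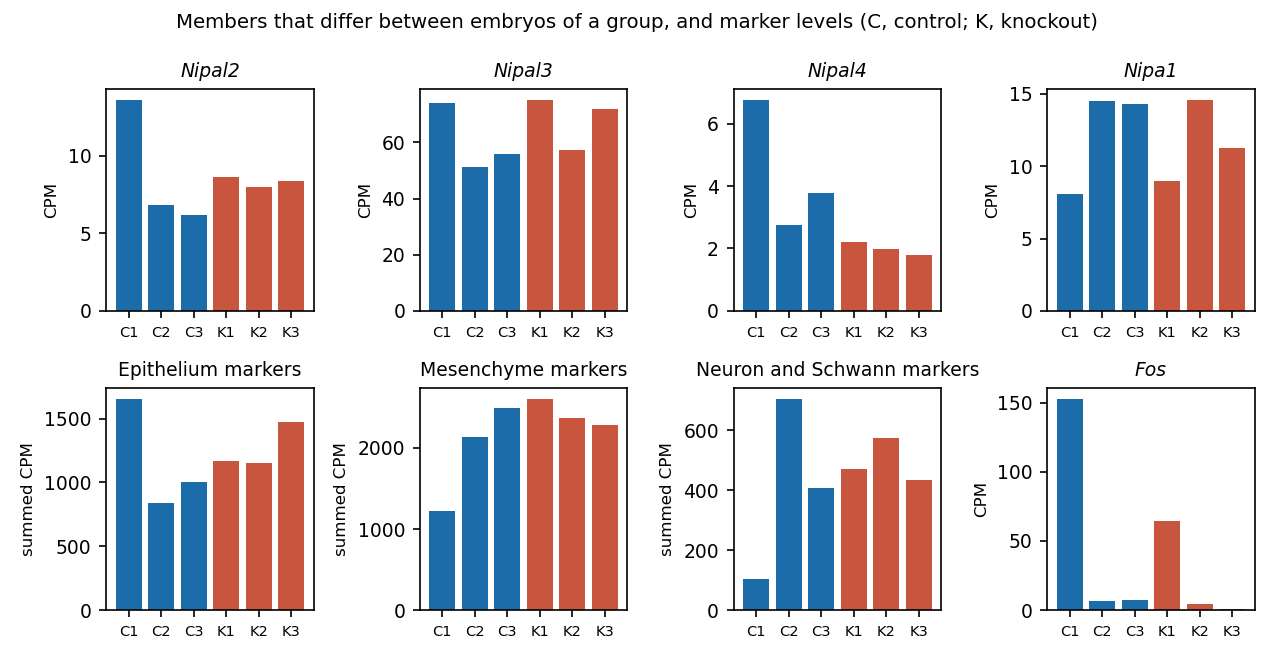
CPM of Nipal2, Nipal3, Nipal4, Nipa1 and Fos and summed CPM of 3 marker lists (bars, from 0) in control embryos C1 to C3 and knockout embryos K1 to K3. C1 stands out with 6.77 CPM of Nipal4 and 103.5 CPM of neuronal and Schwann cell markers, and Nipa1 is lowest in C1 (8.09 CPM) and K1 (8.996 CPM).

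Of the CNNM genes, Cnnm2 and Cnnm1 had higher values in all 3 knockouts than in any control. CNNM2 is a basolateral protein of the kidney's distal tubule that is mutated in an inherited low-magnesium disorder. Cnnm2 (chromosome 19, 46756834 to 46878580, plus strand) had 18.8, 17.6 and 17.7 CPM in control embryos 1 to 3 and 21.3, 21.4 and 23.8 CPM in knockout embryos 1 to 3. The groups were close but did not overlap, at a log2 fold change of 0.30 ± 0.14 (SE, 95% interval -0.02 to 0.62, adjusted p = 0.994). Its 2 transcript rows held nearly the same reads, 2050 and 2049 over the 6 embryos.

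Cnnm1, the CNNM gene with the lowest level here (chromosome 19, 43439069 to 43497210, plus strand), had 14, 30 and 15 reads in controls and 21, 26 and 44 in knockouts. This was 0.877, 1.36 and 0.808 CPM against 1.60, 1.40 and 2.94 CPM. The groups almost touched, since control embryo 2 and knockout embryo 2 had nearly the same level. The log2 fold change was 0.94 (95% interval -0.05 to 1.93, adjusted p = 0.994). The ratio of the 91 knockout reads to the 59 control reads, corrected for library size, was 1.87 (exact 95% interval 1.33 to 2.64, for counting error only).

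Cnnm3 and Cnnm4 are neighbours on chromosome 1, 3090 bases apart on the plus strand (36511867 to 36528237 and 36471597 to 36508776). CNNM4 extrudes magnesium across the basolateral side of intestinal epithelium and is mutated in a syndrome of cone-rod dystrophy and enamel defects, and CNNM3 is a partner of PRL phosphatases. Cnnm3 had 44.3, 40.7 and 39.2 CPM in controls and 39.0, 46.5 and 43.4 CPM in knockouts (log2 fold change 0.05, 95% interval -0.24 to 0.34). Cnnm4 had 28.1, 26.2 and 25 CPM in controls and 25.3, 25.6 and 30.8 CPM in knockouts (0.04, -0.28 to 0.36). Groups overlapped in both, the adjusted p was 0.994 in both, and the intervals exclude a change of 1 on the log2 scale. Their transcripts share 36 windows of 30 bases, so a few reads could be assigned to either.

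Counted together, 1 of the 10 genes was past the adjusted threshold of 0.05 in edgeR, Nipal1, where 0.149% of all genes tested were called. None of the 10 was called higher (0.0815% of all genes were), and 1 was called lower (0.0679% of all genes were). Since Nipal1 was chosen for this contrast, nothing can be read from that count. Its call was lost when any 1 of the 6 embryos was left out (adjusted p 0.0671 to 0.217, log2 fold changes -4.41 to -3.34). The call was kept in 6 alternative fits, DESeq2 among them, and these too describe a gene chosen for this contrast. Of the other 9, edgeR called 0, with 1 (Nipal4) at an unadjusted p under 0.05, as were 4.77% of all genes, and DESeq2 called 0, where it called 1.04% of all genes it tested. In CPM the groups did not overlap in 3 of these 9 (Nipal4 lower, Cnnm1 and Cnnm2 higher in the knockout), beside 9.84% of all genes (4.44% lower and 5.4% higher in the knockout). The log2 fold change was negative in 4 of the 5 NIPA genes other than Nipal1, with a median of -0.09, beside 0.0016 over all genes tested. It was positive in 4 of 4 CNNM genes, with a median of 0.18, but turned negative in Cnnm3 (-0.0955) and Cnnm4 (-0.0740) with Xist as a covariate.

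**Figure D3:**
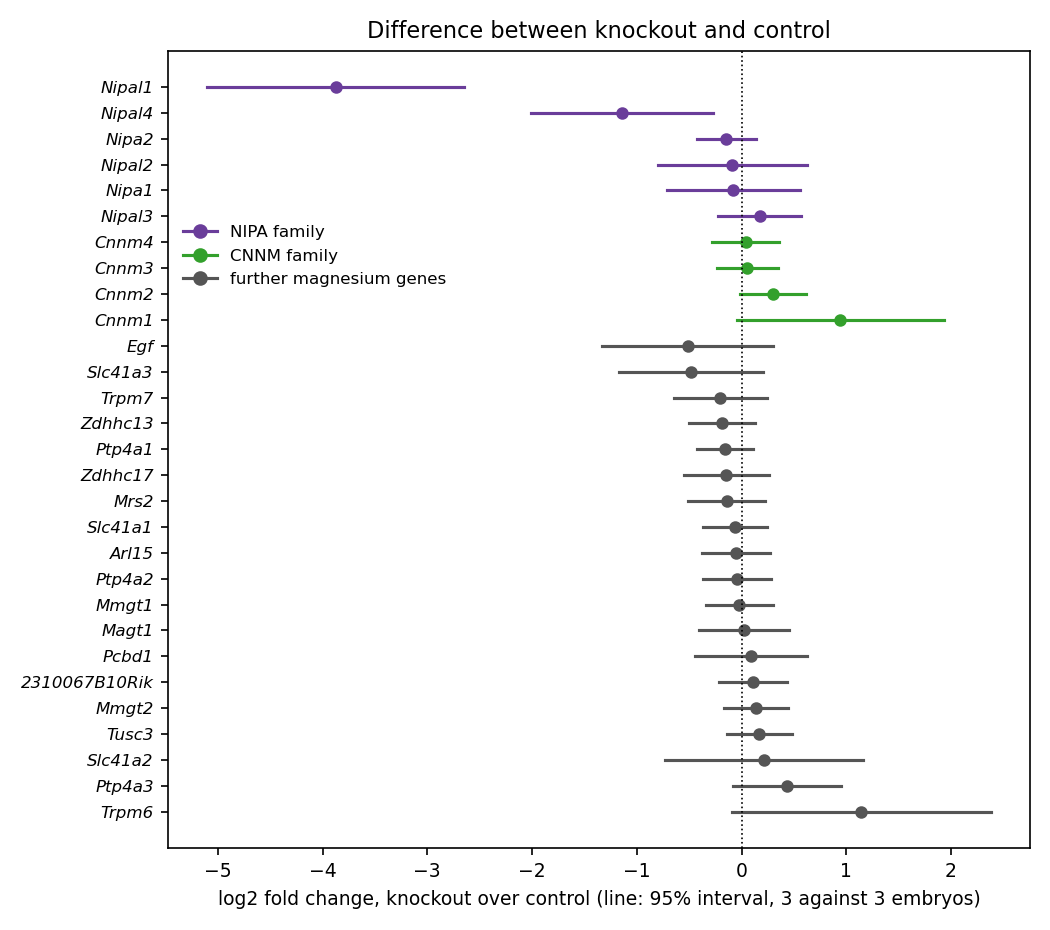
Log2 fold change of knockout over control (points) with 95% intervals (lines) from edgeR for the 10 NIPA and CNNM genes and the 19 further magnesium genes tested. Apart from Nipal1, which was chosen for this contrast and is shown as a description, the interval of Nipal4 (-2.01 to -0.27) is the only 1 that does not include 0.

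Other genes of magnesium handling were taken from a list of 26, of which 25 had a row and 19 were tested. In edgeR 0 rose and 0 fell, 0 had an unadjusted p under 0.05, and DESeq2 also called 0. Over all genes tested, edgeR called 0.0815% higher and 0.0679% lower, and 4.77% had an unadjusted p under 0.05. DESeq2 called 1.04% of all genes it tested. Their log2 fold changes ranged from -0.51 to 1.14 with a median of -0.04. Among the 13 channels and carriers tested, 6 were positive and 7 negative. Magt1 and Tusc3, which encode related membrane proteins linked both to magnesium uptake and to protein glycosylation, were the channel and carrier genes with the highest level per length. Magt1 had 13.0 FPKM in controls and 13.3 FPKM in knockouts (log2 fold change 0.02, 95% interval -0.40 to 0.45). Tusc3 had 28.2 and 32.8 FPKM (0.17, -0.14 to 0.48). Trpm6, the channel kinase of kidney and gut magnesium uptake, was weakly expressed, with 0.689, 1.23 and 0.647 CPM in controls and 0.686, 2.52 and 2.47 CPM in knockouts. Knockout embryos 2 and 3 were above all controls but knockout embryo 1 was within them, at a log2 fold change of 1.14 (-0.09 to 2.38, adjusted p = 0.994). The sign of Trpm6 turned with Xist as a covariate (-0.43) and without knockout embryos 2 and 3 (-0.33). Slc41a3, a solute carrier gene, had -0.48 (-1.17 to 0.21, adjusted p = 0.994).

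The PRL phosphatases that bind CNNM proteins are encoded by Ptp4a1, Ptp4a2 and Ptp4a3. Ptp4a2 had the highest level of the whole list, at 48.8 FPKM in controls and 48.2 FPKM in knockouts (log2 fold change -0.04, 95% interval -0.37 to 0.28). Ptp4a3 had 32.97, 39.9 and 27.2 CPM in controls and 60.7, 37.5 and 37.4 CPM in knockouts (0.44, -0.08 to 0.95, adjusted p = 0.994), with knockout embryo 1 far above the other 5 embryos. In Ptp4a1, taken up after its values were seen, the knockouts (28.6 to 29.8 CPM) lay just below the controls (32.2 to 32.97 CPM), the only 1 of the 19 with groups that did not overlap. Of all genes tested, 9.84% had groups that did not overlap, and in 4.44% the knockout was the lower group. Of the 8 genes of paracellular, hormonal and renal magnesium handling, 6 had too few reads for the test, among them Cldn16 and Umod with 0 reads in all embryos.

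Nipal1 was set beside genes of strial marginal cells because several of these also fell. The marker list was written with earlier results of these data known, so its counts are a description. Of 10 marginal cell markers 9 were tested, and 3 fell (Kcne1, Bsnd and Esrrb) and 0 rose in edgeR, while DESeq2 called 3. Of all genes tested, edgeR called 0.0679% lower and 0.0815% higher, and DESeq2 called 1.04% of those it tested. The log2 fold change was negative in 7 and positive in 2, Stra6 (0.68, adjusted p = 0.712) and Lmx1a (0.47, adjusted p = 0.994), both taken up after their values were seen. The groups did not overlap in 3 lower markers and 1 higher (Stra6, 19.6 to 36.0 CPM in controls and 37.95 to 52.7 CPM in knockouts). Of all genes tested, 4.44% were lower and 5.4% higher in the knockout without overlap. Kcne1, the potassium channel beta subunit, had 16.1, 8.94 and 10.8 CPM in control embryos 1 to 3 and 0.152, 0.644 and 0.534 CPM in knockout embryos 1 to 3. Bsnd, the gene of barttin (a partner of chloride channels), had 5.14, 2.59 and 2.91 CPM in controls, 0.152 CPM in knockout embryo 1 and 0 in knockout embryos 2 and 3. Esrrb, the nuclear receptor of marginal cells, had 143, 76.7 and 85.5 CPM in controls and 9.68, 6.50 and 3.27 CPM in knockouts. In these 3 genes control embryo 1 stood well above the other controls, which was not so for Nipal1. Kcnq1, the partner of Kcne1, had 15.8, 9.16 and 10.4 CPM in controls and 9.22, 4.78 and 4.80 CPM in knockouts, so that the groups overlapped (log2 fold change -0.91, adjusted p = 0.808). Summed over the 9 tested markers, the level was 508.5 to 767 CPM in controls and 430 to 511 CPM in knockouts, with Bsnd the only 1 of these at 0 in a knockout. The part of marginal cells in the level of Nipal1 was not tested.

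Markers of further cell types were counted in the same way. Their lists, too, were written with earlier results of these data known, and the counts are a description. Of 8 markers of melanocytes, the pigment cells of the stria, 0 passed in edgeR, with 5 at an unadjusted p under 0.05 and a summed 191 to 256 CPM in controls and 118 to 198 CPM in knockouts. The groups did not overlap in 3 of these 8, which were lower in the knockout, and 0 were higher. Of all genes tested, 4.77% had an unadjusted p under 0.05 in edgeR and 4.44% were lower without overlap. Of 5 markers of Reissner's membrane and roof 1 rose in edgeR (Slc26a7, an anion transporter gene named after its values were seen) and DESeq2 called 5. All 5 were higher in every knockout than in any control (summed 3097 to 6740 against 8440 to 10760 CPM). Over all genes tested, 0.0815% were called higher in edgeR, 1.04% were called by DESeq2 and 5.4% were higher without overlap. Of 6 hair cell and 5 supporting cell markers 0 passed in edgeR, with 1 and 3 at an unadjusted p under 0.05 and summed levels of 280 to 310 against 225 to 279 CPM and 398.5 to 528 against 262.5 to 436 CPM. Without overlap, 2 hair cell and 3 supporting cell markers were lower in the knockout and 0 were higher. Macrophage (4 tested) and erythroid markers (3 tested) had 0 passing and 0 at an unadjusted p under 0.05, with sums of 32.5 to 77.0 against 67.6 to 107 CPM and 559 to 1094 against 315 to 851 CPM. Epithelial, mesenchymal and neuronal lists had 0 passing and 0 at an unadjusted p under 0.05 as well. Apart from the marginal cell and roof lists, DESeq2 called 0 in each of these lists.

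**Figure D4:**
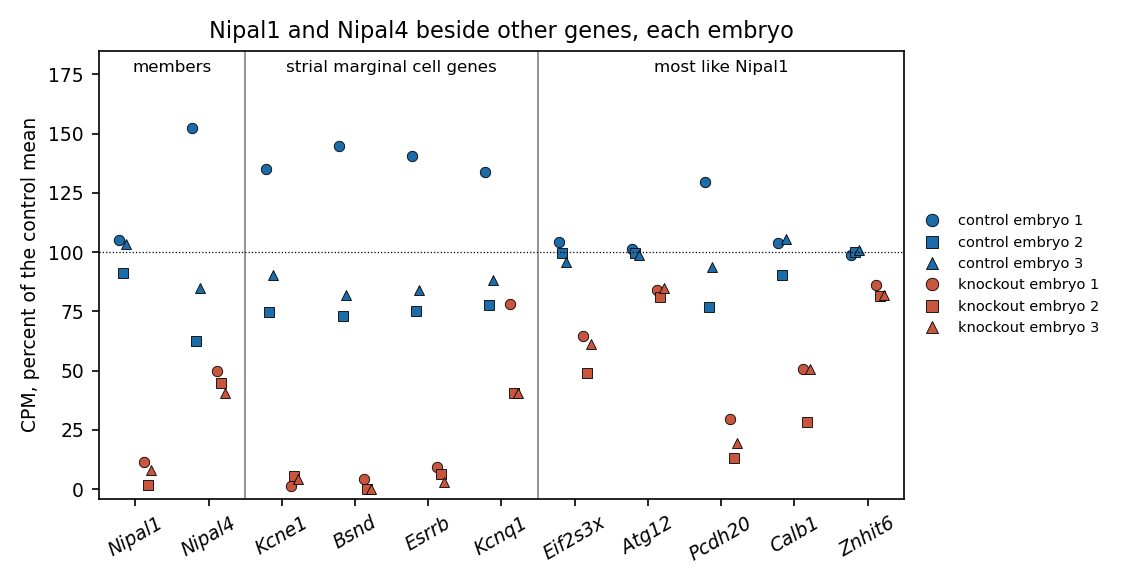
CPM as a percentage of the control mean in each embryo (points) for Nipal1, Nipal4, 4 strial marginal cell genes and the 5 genes whose levels were most like those of Nipal1 (clone and model gene names left out). Nipal1 controls lie close together, whereas control embryo 1 stands apart in Nipal4 and in the 4 strial genes; Nipal1 knockouts average 7.02%.

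Likeness to Nipal1 was ranked by Pearson's r of log2 CPM over the 6 embryos, among genes with a mean of at least 1 CPM. With clone and model gene names left out, the 5 genes most like Nipal1 were Eif2s3x (r = 0.996), Atg12 (0.987), Pcdh20 (0.985), Calb1 (0.983) and Znhit6 (0.980). These r values describe 6 points in 2 groups that lie apart in all 5 genes. Pcdh20, a protocadherin gene, had 177, 105 and 128 CPM in control embryos 1 to 3 and 40.2, 17.9 and 26.7 CPM in knockout embryos 1 to 3, and was the only 1 of the 5 past the threshold (log2 fold change -2.27, adjusted p = 0.0358). Calb1, which encodes the calcium buffer calbindin, had 88.8, 77.3 and 90.2 CPM in controls and 43.4, 24.2 and 43.4 CPM in knockouts (-1.21, adjusted p = 0.132). It lies on chromosome 4 (15881264 to 15906709), as does Esrp1 (11331933 to 11386783), and the part of that nearness was not tested.

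Eif2s3x, a translation initiation factor gene on the X chromosome, had 75.8, 72.5 and 69.8 CPM in controls and 47.1, 35.5 and 44.5 CPM in knockouts (-0.78, adjusted p = 0.123). The autophagy gene Atg12 (-0.26) and Znhit6 (-0.27) followed the same order of groups with far smaller differences. In all, 14094 genes were compared with Nipal1, clone and model names included. Of the strial genes, Bsnd had an r of 0.976, close to that of Znhit6, with 8 genes above it, Nipal1 itself counted among these. Counted in the same way, Esrrb had 0.941 (36 genes above it), Kcne1 0.901 (85 genes) and Kcnq1 0.843 (184 genes). Among the other members r was 0.800 for Nipal4, 0.519 for Nipa2, -0.67 for Cnnm1 and -0.86 for Cnnm2.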

How the data were processed

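The authors deposited 1 table with 28644 RefSeq transcript rows, in which per the file headers reads are raw counts per embryo and FPKM are levels per length. Per the submitters' processing notes, the build was mm10 and edgeR was used; the authors' deposited log2 fold changes and FDR (p-values adjusted for many tests) come from that comparison, per the file headers. For the aligner and the counter nothing is stated in the sources used here, and 15 columns were not used. A gene with several rows entered through the row holding most reads. Genes were kept with filterByExpr (minimum count 10), scaled by TMM and tested with edgeR 4.0.16 (quasi-likelihood, Benjamini-Hochberg, threshold 0.05) under R 4.3.3, after a test on simulated data; DESeq2 1.42.0 and limma 3.58.1 served as alternatives. Standard errors were obtained by dividing the absolute log2 fold change by the root of the F statistic. Log2 CPM has a prior count of 2.

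FPKM served for levels per length, given for both groups, and in 2 alternative fits; the main test used counts. Positions and promoters came from RefSeq on GRCm38.p6, with a promoter window for 9 of the 10 members, and transcripts from GENCODE M21. Embryos are the replicates. Intervals on reads cover counting error only.

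Members and lists were chosen with earlier results of these data known. Named genes are the members, Esrp1, the 5 genes most like Nipal1, the further magnesium genes with the 3 smallest p-values or 3 highest FPKM (and all past the threshold), 3 neighbours on each side of Nipal1, 4 strial genes, Xist, Ddx3y and Fos; any other gene was named after its values were seen.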

Additional observations from a re-analysis of the deposited data

How the results depend on the processing

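Among the 10 members 1 was called, and 0 were called with reads summed over rows, FPKM with a pseudocount of 1, the embryo number as a replicate block, Xist as a covariate, without knockout embryos 2 and 3, and without any single embryo (0 to 0); the cause was not tested. Nipal1 kept its sign in all 17 alternatives (-4.41 to -0.40, the latter with that pseudocount). Since it was chosen for its fall in these same embryos, the kept sign is a description and no support. Of all genes, 22 were called, and 166 by DESeq2, 6 with the replicate block, 5 with Xist, 0 without knockout embryos 2 and 3, 159 without both embryos numbered 1, and 0 to 30 without single embryos. The further magnesium genes had 0 calls in all 17. Nipal3, Nipal4, Nipa2, Cnnm1 and Cnnm2 kept their sign in all 17. Signs near 0 turned: Nipal2 had 0.0168 with FPKM and a pseudocount of 0.1, 0.32 without both embryos numbered 1 and -0.29 to 0.35 without single embryos. Cnnm3 and Cnnm4 had -0.0955 and -0.0740 with Xist, -0.0951 and -0.0707 without knockout embryos 2 and 3, and -0.00876 to 0.110 and -0.0628 to 0.0852 without single embryos. Nipa1 had -0.303 to 0.0663 without single embryos. Same-numbered embryos correlated at 0.0768, 0.177 and 0.0288 in their deviations, and not every embryo correlated best with its own number. With 3 embryos per group, such correlations cannot settle whether the numbers mark pairs. The main fit did not treat the numbers as pairs. The labels give same-numbered control and knockout embryos codes with a shared beginning but do not say what it marks; with the replicate block the adjusted p of Nipal1 was 0.135. Depth limits Nipal1, with 10 knockout reads.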
